A study of Mus musculus with 6 samples.

Results

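The genes followed here, of DNA replication and mitosis, are 34 genes chosen by name as members of the cell division programme. 14 of them act in S phase, when DNA is copied, and 20 act in mitosis or the entry into it. 32 were measured, of 19505 genes with a named probe set, 13 of S phase and 19 of mitosis. Each of these had 1 probe set. No probe set was paired with Mcm7 or Ccnb1, which are not analysed here. The RNA came from C57BL/6J mice and is labelled colon crypt, the gland of the large bowel whose lower part holds dividing cells. 3 arrays are of control mice, titled PBS. The other 3 are of mice that received MBELN, exosome-like nanoparticles from mulberry bark, by daily gavage for 7 days. Whether each array stands for its own mouse is not labelled. The spread behind every p-value is that among these samples and may in part be technical. Arrays within a group also carried different tissue markers, given below, so this spread is not that within a single tissue. With 3 arrays a group, precision is limited throughout.

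In a dividing cell, E2F factors switch on the genes that load the replicative helicase and supply nucleotides, and a later wave, driven by B-MYB and FOXM1 together with the MuvB complex, switches on the mitotic genes. In the gut the transit-amplifying cells of the crypt run this programme continuously, while differentiated epithelium, adult heart muscle cells and neurons have left the cycle. Ki-67, the product of Mki67, is the usual stain for cycling crypt cells.

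The arrays carried markers that went against the tissue label, and these values stand before every result below. Genes of gut epithelium, 14 in number, had median values (log2) between 17.78 and 17.87 on the controls and between 3.58 and 6.29 on the arrays labelled MBELN. Heart muscle genes, 12 in number, reached medians of 18.73 on MBELN 1 and 18.98 on MBELN 3 and stayed at 3.72 to 4.27 elsewhere. The 10 neuronal genes reached 15.84 on MBELN 2 and 3.38 to 4.14 elsewhere. Among the controls, PBS 1 and PBS 3 carried Paneth cell genes, which belong to the small intestine, at medians of 19.06 and 19.61, while PBS 2 stood at 3.39. The 5 colon genes measured had a median of 16.13 on PBS 2, against 2.81 on PBS 1 and 3.10 on PBS 3. A probe set was taken as dim on an array when it lay at or below the receptor level of that array, the 95th percentile over 1414 probe sets of smell and pheromone receptors, a level between 3.99 and 4.44. On every array between 50.3% and 55.2% of all transcript probe sets lay above it.

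Short stretches of promoter are shown first, because the motifs of the E2F and MuvB waves can be read in them. RefSeq start sites on GRCm38.p6 were matched for 25 of the 32 measured members, 10 of S phase and 15 of mitosis, over a window from 250 bases before to 50 after the start. The cell cycle homology region, the motif read by the MuvB complex, was searched as TTTGAA on both strands. It was in 11 of 15 mitotic promoters, 1 of 10 S-phase promoters and 17.9% of all 32851 promoters. All 11 also held CCAAT, the motif of the NF-Y factor, on either strand, and 6.95% of all promoters held both. CCAAT by itself was in 13 of 15 mitotic promoters, 7 of 10 S-phase promoters and 37.4% of all, so it was common in both sets. A loose E2F motif, TTTNNCGC on both strands, was in 5 of 10 S-phase promoters, 1 of 15 mitotic promoters and 5.17% of all. Matches of TTTGAA and of the E2F motif did not overlap in any member. A match is a description of letters and not a mapped site. The sequences below read 5′ to 3′ along the gene and end before its start. In the mitotic promoters capitals mark TTTGAA and CCAAT or their reverse complements, and in the S-phase promoters they mark the E2F motif alone. The Mcm6 stretch also holds the reverse complement of CCAAT, and the Cdk1 stretch an E2F match, both left in small letters.
Cdk1, chr10:69352913-69353032, minus strand: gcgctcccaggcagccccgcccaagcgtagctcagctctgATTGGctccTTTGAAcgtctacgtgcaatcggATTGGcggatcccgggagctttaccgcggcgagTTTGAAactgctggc
Ube2c, chr2:164769809-164769928, plus strand: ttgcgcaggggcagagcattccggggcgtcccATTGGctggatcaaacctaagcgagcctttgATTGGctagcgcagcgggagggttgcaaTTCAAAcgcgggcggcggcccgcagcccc
Top2a, chr11:99024190-99024309, minus strand: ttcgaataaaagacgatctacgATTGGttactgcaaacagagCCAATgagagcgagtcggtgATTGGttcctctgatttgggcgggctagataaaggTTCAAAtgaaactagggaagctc
Mki67, chr7:135716460-135716579, minus strand: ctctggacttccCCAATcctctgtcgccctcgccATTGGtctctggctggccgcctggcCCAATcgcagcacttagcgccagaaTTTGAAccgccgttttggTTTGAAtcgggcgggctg
Mcm6, chr1:128359726-128359825, minus strand: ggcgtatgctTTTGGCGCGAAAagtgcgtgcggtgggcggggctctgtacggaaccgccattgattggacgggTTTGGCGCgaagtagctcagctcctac
Mcm5, chr8:75109339-75109398, plus strand: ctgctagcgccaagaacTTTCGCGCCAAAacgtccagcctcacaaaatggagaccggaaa
Cdc6, chr11:98907991-98908050, plus strand: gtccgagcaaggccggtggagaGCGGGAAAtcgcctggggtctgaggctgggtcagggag
The Cdk1 stretch holds TTTGAA at 2 places and CCAAT at 2, and those of Ube2c and Top2a hold TTTGAA at 1 place each, at -29 and -23 from the start. In Mki67 both copies lie farther upstream, at -116 and -98. The Mcm6 stretch holds 3 matches of the E2F motif and that of Mcm5 holds 2, some of them overlapping on opposite strands.

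All 13 S-phase and all 19 mitotic members lay above the receptor level in both PBS 1 and PBS 3. In PBS 2 the numbers were 9 of 13 and 9 of 19. Among the arrays labelled MBELN, 7, 5 and 7 S-phase members and 4, 2 and 4 mitotic members lay above it in MBELN 1, 2 and 3. S-phase members above the level made up 69.2% in PBS 2, 53.8% in MBELN 1 and MBELN 3 and 38.5% in MBELN 2, so only the last share was under that of all probe sets. Mitotic members above it made up 47.4% in PBS 2, 21.1% in MBELN 1 and MBELN 3 and 10.5% in MBELN 2, all under the share of all probe sets. The median mitotic value was 6.74, 3.88 and 7.29 on the PBS arrays 1, 2 and 3 against 3.96, 3.06 and 3.85 on MBELN 1, 2 and 3. The median S-phase value was 6.20, 4.81 and 6.66 in the first 3 and 4.65, 3.67 and 4.67 in the last. In RNA of a whole sample, fewer dividing cells and less of these transcripts per cell cannot be told apart. Nor can the gavage and the tissue markers be told apart. The gut epithelial median was 17.78 to 17.87 in PBS and 3.58 to 6.29 in MBELN. MBELN 2, the array with neuronal markers, was the lowest of the 6 for 10 S-phase and 13 mitotic members, against 27.3% of all probe sets.

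**Figure D1:**
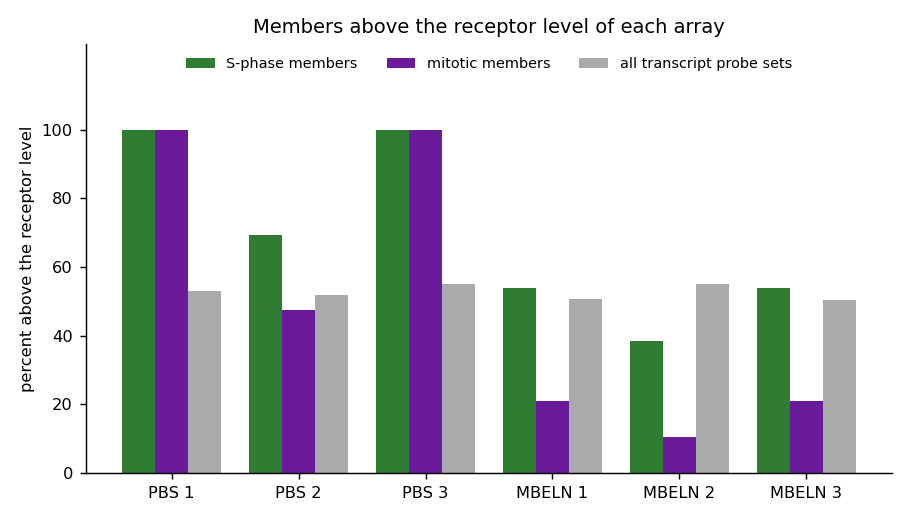
Percent of the 13 S-phase members, the 19 mitotic members and all transcript probe sets that lay above the receptor level of each array. Both kinds of member reach 100% in PBS 1 and PBS 3, while mitotic members drop to 47.4% in PBS 2 and to between 10.5% and 21.1% in the arrays labelled MBELN.

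The comparison of MBELN with PBS asked which transcripts differ after the gavage in RNA labelled colon crypt. 1 member, the S-phase gene Tyms, was lower in MBELN with limma and Benjamini-Hochberg adjustment over 22206 probe sets at a threshold of 0.05. That made 1 of 13 S-phase and 0 of 19 mitotic members, beside 3.76% of all probe sets called lower, and neither count is a result about the members. No member was called higher, beside 1.42% of all. At an unadjusted p under 0.05, 4 S-phase and 13 mitotic members were lower, beside 10.6% of all. The difference MBELN minus PBS was below 0 for 12 of 13 S-phase and 19 of 19 mitotic members. Its median was -1.39 for S phase and -2.47 for mitosis (log2), against 0.09 for all probe sets. The 3 MBELN values lay below all 3 PBS values for 4 S-phase and 11 mitotic members, beside 13.4% of all probe sets. No member had the groups apart in the other direction, beside 11.9% of all. The S-phase and mitotic medians were not tested against each other.

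The controls were spread widely for these genes. The SD over the 3 PBS arrays had a median of 1.91 for mitotic members and 0.92 for S-phase members, against 0.40 for all probe sets. Over the 3 MBELN arrays it was 0.64, 0.60 and 0.60. On all of these arrays 14 of 19 mitotic and 4 of 13 S-phase members lay at or below the receptor level, beside 7932 of 22206 probe sets. The MBELN spread of those members is therefore that of dim values. PBS 2 was lower than both other controls for 19 of 19 mitotic and 11 of 13 S-phase members, beside 35.9% of all probe sets. Its distance from the lower of those arrays had a median of -2.84 for mitotic and -1.39 for S-phase members (log2). PBS 2 was above every MBELN array for 11 mitotic and 4 S-phase members, beside 27.0% of all probe sets, a share close to that of the S-phase members. PBS 1 and PBS 3 were each above every MBELN array for 19 and 12, beside 25.9% of all for either array. The crypt stem cell genes, of which 8 were measured, had medians of 7.55, 4.82 and 8.01 on the PBS arrays 1, 2 and 3 against 4.67, 4.61 and 5.42 on MBELN 1, 2 and 3. Lgr5, the receptor that marks crypt stem cells, read 6.80, 3.42 and 7.56, then 3.82, 4.64 and 4.66. PBS 2 was the lowest control for 7 of the 8 genes. The exception was Sox9, highest on PBS 2, at 8.30, 8.93 and 8.46, then 6.48, 8.28 and 7.52. The difference MBELN minus PBS was below 0 for 7 of the 8 and above 0 for Smoc2, which read 6.39, 4.42 and 5.76, then 8.10, 4.59 and 7.91. Fibroblast genes, 5 measured, had medians of 6.92, 11.84 and 6.97 on the controls and 10.49, 4.92 and 11.24 on MBELN 1, 2 and 3. For 4 macrophage genes the medians were 6.40, 9.39 and 5.11, then 10.03, 4.93 and 9.27. Both lists were highest among the controls on PBS 2. The part of these markers in the result was not tested.

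Without PBS 2, a setting that leaves 2 control arrays, 15 of 19 mitotic and 2 of 13 S-phase members were lower, beside 5.86% of all probe sets. Without MBELN 2 the numbers were 1 and 4, beside 7.32%. With both arrays left out, chosen after seeing the data, all 19 mitotic and 11 of 13 S-phase members were lower, beside 15.4% of all. That last setting sets PBS 1 and PBS 3, with medians of 17.13 and 16.28 for 9 small intestinal genes, against the arrays with heart markers, where the same genes had medians of 10.76 and 8.89.

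The minichromosome maintenance proteins form the ring that unwinds DNA ahead of the fork, and 5 of the 6 subunits were measured. Mcm2 read 6.20, 4.81 and 7.50 on the PBS arrays 1, 2 and 3 against 4.34, 3.67 and 4.98 on MBELN 1, 2 and 3. Mcm6 read 7.94, 5.25 and 8.75 against 6.62, 3.64 and 6.36. For both genes PBS 1 and PBS 3 were above every other array and PBS 2 lay inside the MBELN range, so the groups overlapped. Mcm5 read 6.32, 3.30 and 7.03 on the PBS arrays against 3.52, 3.78 and 3.48 on MBELN, with PBS 2 the lowest of the 6. Mcm3 and Mcm4 differed by -1.32 ± 0.60 and -1.38 ± 0.57 (log2, SE, n = 3). None of the 5 subunits passed the threshold, with limma adjusted p between 0.289 for Mcm4 and 0.527 for Mcm6.

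Cdc6 loads the helicase onto origins and Gins1 belongs to the complex that activates it. Cdc6 read 4.93, 4.37 and 4.41 on the PBS arrays against 3.29, 3.04 and 3.20 on MBELN. The controls were close together and the groups did not overlap, with a difference of -1.39 ± 0.29 (log2, SE, n = 3; limma, adjusted p = 0.0572). Its limma adjusted p was 0.0483 under quantile normalization and 0.0958 with the filter on dim probe sets, and without 1 array it ran from 0.0415 to 0.220, under the threshold in 1 of 6 such fits. All 3 MBELN values lay below the receptor level, so from the PBS mean to that level Cdc6 was at least 1.20-fold lower. Gins1 read 4.61, 2.91 and 4.37 on the PBS arrays against 3.28, 2.50 and 3.69 on MBELN, where PBS 2 again fell among the MBELN arrays.

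Pcna encodes the sliding clamp that holds polymerases on DNA and also serves DNA repair. It read 13.34, 13.64 and 13.89 on the PBS arrays 1, 2 and 3 against 12.47, 10.17 and 11.83 on MBELN 1, 2 and 3. Pcna was among the 5 members above the receptor level in all 6 arrays, and it was 1 of 2 members for which PBS 2 did not lie below the other controls. Its difference was -2.13 ± 0.64 (log2, SE, n = 3; limma, adjusted p = 0.154), with the lowest value in MBELN 2.

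Nucleotide supply held the member that passed. Tyms, thymidylate synthase, read 7.73, 6.63 and 8.24 on the PBS arrays against 4.65, 5.02 and 4.76 on MBELN. Every control lay above every MBELN array, and the MBELN arrays stood close together. Their values were not far above the receptor levels of MBELN 1, 2 and 3, at 4.39, 4.10 and 4.44. The part of the tissue markers in this difference was not tested. Tyms fell by 2.72 ± 0.47 (log2, SE, n = 3), or 6.60-fold (limma, adjusted p = 0.0346). The call ended without PBS 1 (0.162), PBS 3 (0.119), MBELN 1 (0.132) or MBELN 3 (0.131). Rrm1 and Rrm2 are the subunits of ribonucleotide reductase, of which Rrm2 is the one restricted to S phase. Rrm2 read 5.88, 5.68 and 5.02 on the PBS arrays against 3.50, 3.40 and 4.18 on MBELN, a difference of -1.84 ± 0.38 (limma, adjusted p = 0.0586). Every MBELN value of Rrm2 lay below the receptor level, and from the PBS mean to that level Rrm2 was at least 2.33-fold lower. It was the other member in which PBS 2 did not lie below the other controls. Rrm1 read 9.16, 7.73 and 9.32 against 7.99, 7.25 and 8.29, with PBS 2 below MBELN 1 and MBELN 3, and was above the receptor level in all 6 arrays.

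Cyclin E starts S phase with Cdk2, and its genes ran apart. Ccne1 read 4.92, 3.07 and 4.91 on the PBS arrays against 3.40, 6.75 and 3.34 on MBELN. Its highest value was in MBELN 2, the array with neuronal markers, and it was the single member with a difference above 0, at 0.20 ± 1.11 (log2, SE, n = 3; limma, adjusted p = 0.948). Without PBS 2 and MBELN 2 its difference turned to -1.55 ± 0.31. Ccne2 read 5.48, 4.81 and 6.05 against 5.16, 3.48 and 4.67, with its lowest value in MBELN 2.

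**Figure D2:**
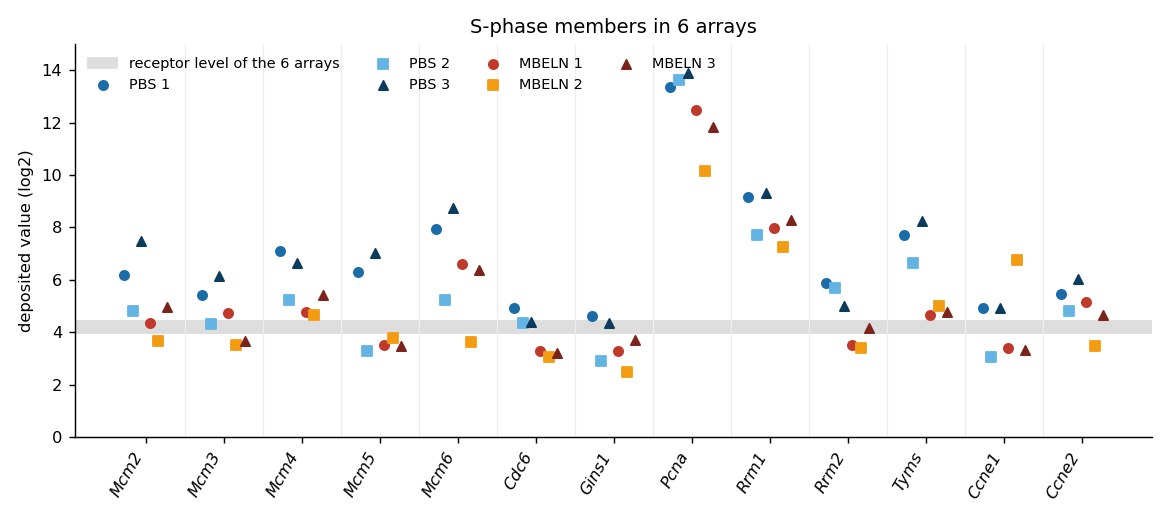
Deposited log2 values of the 13 measured S-phase members, 1 point for each array, with the span of the receptor level of the 6 arrays as a grey band. Tyms, Rrm2, Cdc6 and Pcna are the 4 members whose PBS points all lie above their MBELN points, and Ccne1 is highest in MBELN 2 at 6.75.

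Cyclins A2 and B2 with Cdk1 form the kinase that drives entry into mitosis. Ccna2 read 7.66, 3.86 and 9.31 on the PBS arrays 1, 2 and 3 against 3.09, 2.97 and 3.85 on MBELN 1, 2 and 3. PBS 2 was barely above MBELN 3, and both lay below the receptor level. Ccnb2 read 8.54, 4.46 and 8.54 against 4.37, 3.27 and 3.86, and Cdk1 read 5.50, 2.71 and 6.64 against 2.63, 2.50 and 2.72. All 3 genes lay below the level on every MBELN array. From the PBS mean to that level, Ccna2 was 6.21-fold and Ccnb2 at least 7.32-fold lower, with limma adjusted p of 0.259 and 0.228. For Ccna2 the fold is not a firm bound, since PBS 2 itself lay below the level. For Ccnb2, PBS 2 was barely above the level, so both folds come mainly from PBS 1 and PBS 3.

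The mitotic kinases Plk1, Aurka and Aurkb ripen centrosomes, build the spindle and correct chromosome attachment. Plk1 read 7.90, 5.05 and 8.32 on the PBS arrays against 2.59, 3.80 and 2.70 on MBELN. Of the 19 mitotic members it had the smallest adjusted p, with a difference of -4.06 ± 0.95 (log2, SE, n = 3; limma, adjusted p = 0.0841), and here PBS 2 stood 1.25 above the highest MBELN array. Every MBELN value of Plk1 lay below the receptor level. From the PBS mean to that level it was at least 6.87-fold lower. Aurkb read 6.77, 3.36 and 6.98 against 2.79, 3.06 and 3.51, and Aurka 5.84, 3.67 and 5.88 against 4.29, 3.62 and 4.43. In both, PBS 2 lay within the MBELN range. Birc5, survivin, which works in a complex with Aurkb, read 6.74, 3.57 and 7.60 against 4.17, 2.86 and 4.08 with PBS 2 again within the MBELN range.

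Bub1, Bub1b and the kinetochore proteins Cenpe and Cenpf watch over chromosome attachment. Bub1b, BubR1 of the spindle checkpoint, read 6.32, 4.53 and 6.36 on the PBS arrays against 3.97, 3.06 and 2.81 on MBELN. Bub1 read 5.98, 3.87 and 5.85 against 3.44, 2.17 and 2.67. The groups did not overlap for either gene, and limma gave adjusted p of 0.109 and 0.133. Every MBELN value of both genes lay below the receptor level. PBS 2 did too for Bub1, so the gap between PBS 2 and MBELN is there one between dim values. Cenpe read 6.61, 3.29 and 7.78 on the controls, 2.65 on MBELN 1 and 3.69 on MBELN 3, and MBELN 2 was higher than either, so PBS 2 lay among the MBELN arrays. Cenpf read 4.71, 3.11 and 3.99 on the PBS arrays against 2.70, 2.36 and 2.67 on MBELN, with PBS 2 below the receptor level and PBS 3 barely above it.

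Cdc20 and Ube2c feed the anaphase-promoting complex, which destroys cyclin B. Ube2c read 9.31, 5.27 and 9.82 on the PBS arrays against 4.86, 3.76 and 5.01 on MBELN. PBS 1 and PBS 3 were 4.31 and 4.81 above the highest MBELN array and PBS 2 was 0.27 above it. Cdc20 read 5.88, 2.75 and 6.20 against 2.67, 3.05 and 2.84, with PBS 2 inside the MBELN range. The limma adjusted p was 0.225 for Ube2c and 0.336 for Cdc20.

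Spindle motors and assembly factors are Kif11, which pushes the poles apart, Kif20a, a motor of the central spindle, Tpx2, which activates Aurka, and Nusap1, which bundles microtubules at chromosomes. Kif11 read 8.01, 4.89 and 7.29 on the PBS arrays against 3.42, 4.45 and 3.62 on MBELN. Nusap1 read 8.91, 5.46 and 9.76 against 4.85, 3.59 and 5.69. Kif11 did not overlap between groups, while PBS 2 lay below MBELN 3 for Nusap1. Tpx2 differed by -2.05 ± 0.79 and Kif20a by -1.88 ± 0.87 (log2, SE, n = 3), with all MBELN arrays below the receptor level for both.

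Mki67 and Top2a, the topoisomerase that untangles replicated chromosomes, are the chromatin members. Mki67 read 12.31, 7.45 and 12.79 on the PBS arrays against 6.15, 3.04 and 6.21 on MBELN. Its values formed 3 steps, with PBS 1 and PBS 3 near each other, PBS 2, MBELN 1 and MBELN 3 in the middle, and MBELN 2 below the receptor level. Its difference was -5.72 ± 1.70 (log2, SE, n = 3), with 2 of the 3 MBELN arrays above the receptor level, and limma gave an adjusted p of 0.152. Without PBS 2 it was -7.42 ± 1.13 (limma, adjusted p = 0.0311). Mki67 did not pass with any other 1 array left out, with limma adjusted p from 0.129 without MBELN 2 to 0.434 without PBS 1. Top2a read 8.38, 5.91 and 9.17 against 5.21, 4.15 and 5.55 and was the single mitotic member above the receptor level on all 6 arrays.

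**Figure D3:**
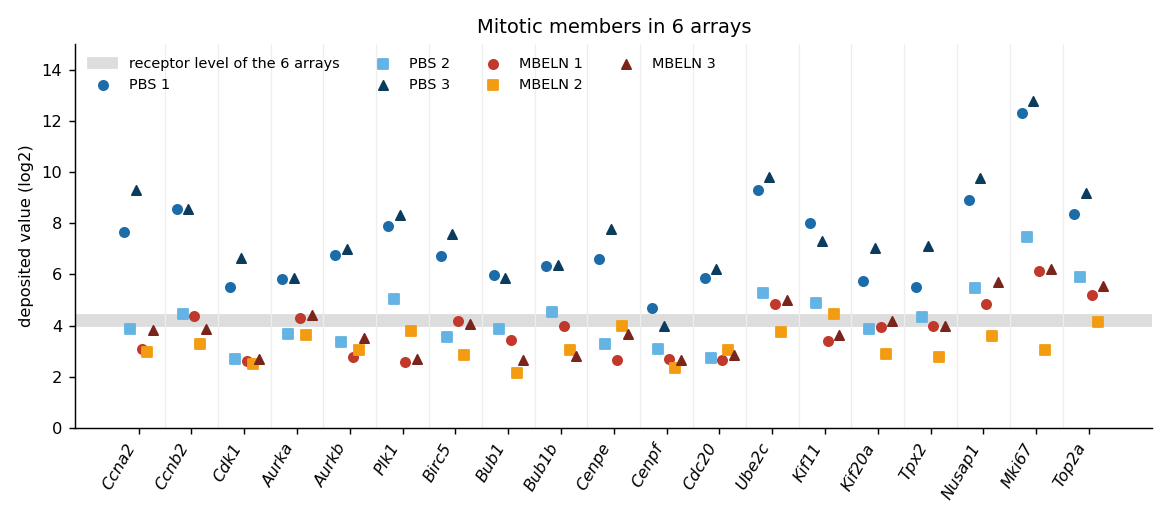
Deposited log2 values of the 19 measured mitotic members, 1 point for each array, with the span of the receptor level of the 6 arrays as a grey band. PBS 1 and PBS 3 stand above the other 4 arrays for every gene, and PBS 2 lies below both of them for all 19.

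**Figure D4:**
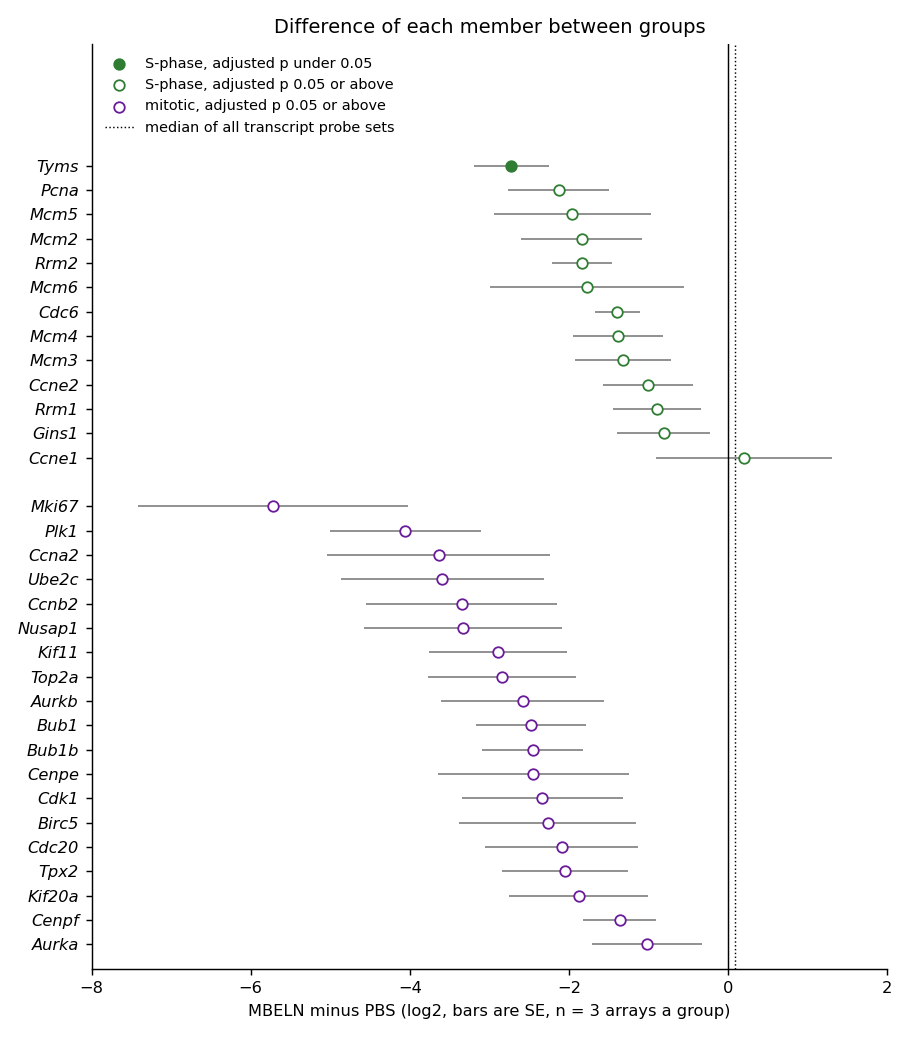
MBELN minus PBS for each measured member (log2, bars are SE, n = 3 arrays a group), with filled points for an adjusted p under 0.05. The differences run from -5.72 for Mki67 to 0.20 for Ccne1, Tyms is the single filled point, and 18 members lay at or below the receptor level on every MBELN array, so the size of their differences is not fully measured.

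Other genes of the programme were taken from lists. Of 36 measured replication genes outside the members, 0 passed with limma in either direction, with 6 at an unadjusted p under 0.05, and their median difference was -0.72 (log2). In either direction 17.8% of all probe sets had such a p, so these 6 are no more than the background. Of 54 further mitosis genes, 0 passed, 12 had an unadjusted p under 0.05, beside the same 17.8% of all, and the median was -1.26. For both lists the 0 stands beside 3.76% of all probe sets called lower and 1.42% called higher. None of these counts is a result about the genes. PBS 2 was the lowest control for 28 of the 36 and 45 of the 54, beside 35.9% of all probe sets. Pbk, a mitotic kinase and one of the further mitosis genes, read 8.58, 4.20 and 9.04 on the PBS arrays against 3.26, 2.82 and 3.12 on MBELN, again with PBS 2 the lowest control (limma, adjusted p = 0.173). It was picked after its values were seen.

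Of 20 regulators of the programme, E2F factors, their partners, the DREAM and MuvB subunits, Myc and Mycn, 2 fell, 0 rose and 18 did not pass, beside 3.76% of all probe sets called lower and 1.42% called higher. Rbl1, the pocket protein p107 of S-phase cells, read 8.16, 6.95 and 8.49 on the PBS arrays against 4.40, 3.56 and 3.95 on MBELN. Rbl1 fell by 3.90 ± 0.50 on the log2 scale (SE, n = 3), with a limma adjusted p of 0.0138. E2f5, a repressor E2F, fell by 2.09 ± 0.32 (adjusted p = 0.0230), from 7.56, 7.81 and 7.11 to 5.18, 5.69 and 5.33. For both genes every control lay above every MBELN array. Both calls ended without PBS 1, PBS 3, MBELN 1 or MBELN 3, with adjusted p from 0.0516 to 0.0838 for Rbl1 and from 0.0676 to 0.123 for E2f5. The median of the 20 was -0.83.

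Of 8 G1 cyclins and kinases, 0 passed with limma, beside 3.76% of all probe sets called lower and 1.42% called higher. An unadjusted p under 0.05 was found for 2, beside 17.8% of all in either direction, and the median was -0.58. Neither count is a result about these genes. Of 11 inhibitors of the cyclin-dependent kinases and quiescence genes, 2 fell, 0 rose and 9 did not pass, beside the same 3.76% and 1.42%, with a median of -1.83. Cdkn2b, the inhibitor p15 that holds cells in G1, read 11.42, 9.18 and 11.02 on the PBS arrays against 3.95, 3.45 and 3.48 on MBELN, at least 75.1-fold lower (limma, adjusted p = 0.00490). Its call held without any 1 array, with an adjusted p of at most 0.0364. Ccng2, a cyclin of resting cells, fell by 4.84 ± 0.77 on the log2 scale (SE, n = 3), with a limma adjusted p of 0.0262. It no longer passed without PBS 1 (0.117), PBS 3 (0.0564), MBELN 1 (0.0927) or MBELN 3 (0.0965). Its values were 15.28, 16.87 and 14.37 on the PBS arrays against 11.06, 11.20 and 9.74 on MBELN, and PBS 2 was the highest of the 6 arrays. Beside these calls the gut epithelial median was 17.78 to 17.87 in PBS and 3.58 to 6.29 in MBELN, and its part in them was not tested.

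**Figure D5:**
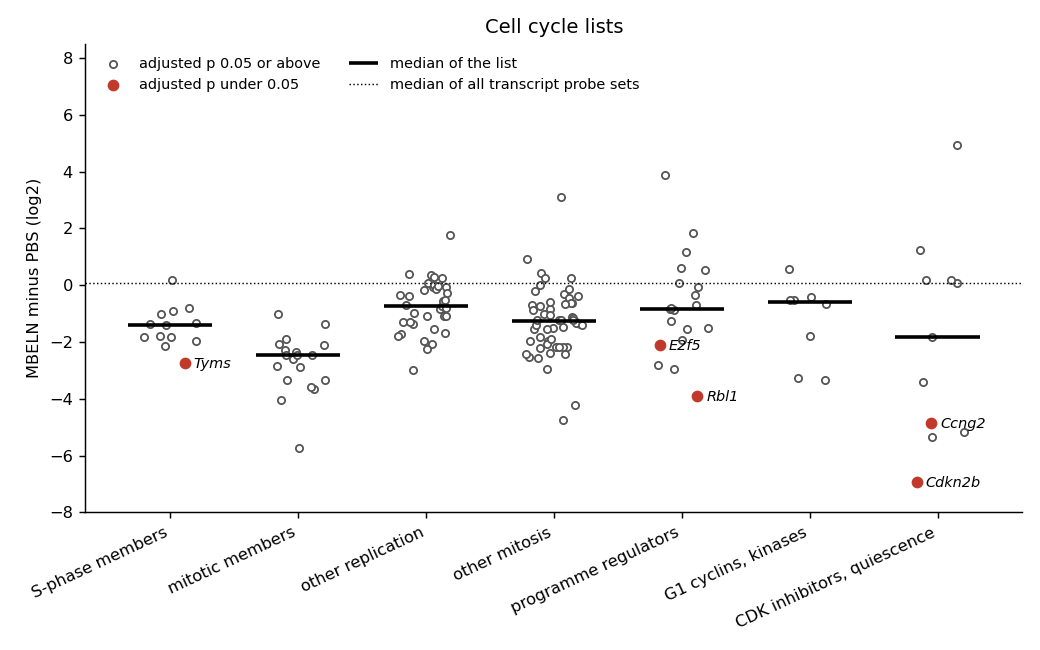
MBELN minus PBS (log2) for the members and the genes of 5 other cell cycle lists, 1 point a gene, with a bar for the median of each list. Mitotic members have the lowest median, -2.47, and the 5 genes past the threshold, Tyms, E2f5, Rbl1, Cdkn2b and Ccng2, are all lower in MBELN.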

How the data were processed

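RNA labelled colon crypt of 6 samples was measured on single-colour arrays. Trizol RNA, 90 ng a sample, was made into biotin cRNA by an Affymetrix protocol, per the labels, which also name an Ion AmpliSeq assay. The authors deposited 1 log2 value per probe set and array; the log2 scale is inferred from the values, and how probes were summarized and normalized is not given in the sources used here. Transcriptome Analysis Console 4.0 appears in the submitters' processing notes. 6640 control probe sets were left out and 22206 transcript probe sets kept. Groups were compared over all 6 arrays, with no covariate, by limma 3.58.1 (lmFit, eBayes; R 4.3.3). P-values are two-sided and adjusted by Benjamini-Hochberg over the 22206 probe sets, with a threshold of 0.05. Symbols came from the platform annotation. Where every MBELN array was at or below the receptor level, a bound runs from the PBS mean to the mean of that level. The members and lists were chosen with earlier results of these data known. All members were named; of other lists, those past the threshold, and any others were picked after their values were seen. The procedure was tested on simulated data. Alternatives were quantile normalization, median centring, a dim filter, a trended robust variance, array weights, a replicate block, other thresholds, arrays left out, and a block for, or a fit within, each level of the spiked hybridisation controls. Figures used matplotlib 3.10.9.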

Additional observations from a re-analysis of the deposited data

How the results depend on the processing

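All values are for MBELN against PBS, and counts are of members lower in MBELN past the threshold. Of S-phase members, against 1 of 13, with 3.76% of all probe sets called lower, the count was 6 with array weights, 2 with quantile normalization, 0 with a trended robust variance, 0 with the replicate block, 0 at an adjusted p of 0.01 and 3 at 0.1. Of mitotic members, against 0 of 19, it was 16 with array weights, 1 with a filter that kept probe sets above the receptor level in at least 3 arrays, 1 with the replicate block, 1 at an adjusted p of 0.1 and 1 with a block for hybridisation control level. Over all probe sets the share called lower was then 13.0% with array weights, 3.68% with quantile normalization, 3.03% with the trended variance, 1.77% with the replicate block, 7.98% with the filter, 4.48% with the level block, and 1.53% and 5.48% at an adjusted p of 0.01 and 0.1. Same-numbered arrays did not deviate together over all probe sets (r of -0.03, -0.07 and -0.06). Since arrays within a group carried different tissue markers, this r cannot show whether the numbers pair samples. With 1 array of each group per number, the replicate block cannot change a difference, so the medians stayed at -1.39 and -2.47 by design. Leaving out 1 array gave 0 to 4 S-phase and 0 to 15 mitotic calls, and medians from -1.81 to -1.18 and from -3.75 to -2.13. Within the arrays of higher control level, PBS 2 alone against MBELN 1 and MBELN 3, the counts were 2 and 1 and the medians -0.10 and -0.34, with 9.21% of all probe sets called. Among the low-level arrays, MBELN 2 alone against PBS 1 and PBS 3, the counts were 12 and 19 and the medians -2.27 and -3.75, with 15.8% of all called. The spread of a lone array is taken from the rest, and since each split also sets different tissue markers against each other, its counts say nothing of the condition. Without PBS 2 and MBELN 2 the counts were 11 and 19, and Ccne1 turned from 0.20 to -1.55. The within-level settings, the block for control level and the last setting were added after seeing the data. E2f5 no longer passed with the replicate block (limma, adjusted p = 0.0923) or the trended variance (0.0839), and Rbl1 did (0.0477 and 0.0203). The cause of these changes was not tested. The dim filter dropped 12 members. Of the members' 596 differences under alternatives, 479 kept their side of the threshold, 109 passed it newly and 7 lost it (all Tyms). The remaining 1, Ccne1 without PBS 2 and MBELN 2, passed with its direction reversed. Direction was not counted among the 479. Ccne1 also turned below 0 without passing, at -1.22 with array weights, -0.93 without MBELN 2 and -0.42 without PBS 2. Members had 1 probe set each, so averaging probe sets was not run. 18 members lay at or below the receptor level on all MBELN arrays, so the size of their differences is not fully measured.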

Other observations

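Some genes of the replication and mitosis lists ran against the members, and they were picked after their values were seen. Pttg1, securin, which holds back the separation of sister chromatids, read 9.14, 10.05 and 9.11 for PBS 1, 2 and 3 (log2) against 13.79, 9.46 and 14.37 for MBELN 1, 2 and 3, highest on the arrays with heart muscle markers. Cenpa, the histone of the centromere, read 7.94, 5.66 and 8.51 against 9.54, 4.60 and 10.77, and Gmnn, geminin, which blocks helicase loading, read 4.13, 3.49 and 5.01 against 7.49, 3.42 and 7.03. All 3 genes were higher on MBELN 1 and MBELN 3 than on the other 4 arrays. Anln, anillin of the cleavage furrow, ran the other way, at 7.25 on MBELN 2 and 3.92 to 5.36 elsewhere. Cdc7, the kinase that fires origins, read 7.01 on MBELN 2 and 3.10 to 6.18 elsewhere. None of these 5 passed the threshold (limma, adjusted p from 0.312 to 0.984).

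Among the quiescence genes, Ccng1, cyclin G1, read 11.98, 12.69 and 11.96 for PBS and 19.14, 12.81 and 19.51 in MBELN, highest on the arrays with heart muscle markers. Cdkn1a, the inhibitor p21, read 15.78, 18.32 and 15.15 for PBS and 14.43, 9.26 and 10.05 in MBELN. PBS 2 was the highest of the 6 arrays for Cdkn1a and lower than the other controls for all 19 mitotic members. Neither gene passed (limma, adjusted p of 0.248 and 0.165).

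In PBS 1 the median of 7 B and T cell genes was 7.32, against 4.34 in PBS 2 and 4.07 in PBS 3. On PBS 1, 2 and 3 the B cell genes Cd79a, Cd79b and Ms4a1 read 8.75, 6.26 and 3.70, 8.34, 5.40 and 4.53, and 7.32, 4.07 and 3.47. Ptprc read 12.96, 10.34 and 7.76. The T cell genes Cd3e and Cd3g differed less, at 5.02, 3.85 and 4.07, and 4.66, 2.97 and 4.10. Cd2 was lowest in PBS 1, at 3.62, 4.34 and 3.76. The mitotic median was 6.74 in PBS 1 and 7.29 in PBS 3.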
